A study of Mus musculus with 12 samples.

Results

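The genes described here encode the standard proteasome, the machine that degrades ubiquitin-tagged proteins, together with its activators, its inhibitor and the chaperones that assemble it. They were taken by symbol as all genes named Psma, Psmb, Psmc, Psmd, Psme, Psmf or Psmg and a number, leaving out the immunoproteasome subunits Psmb8, Psmb9 and Psmb10. Of 26264 genes in the deposited counts, 45 matched, and 43 had at least 10 counts in 4 or more of the 12 libraries. Those 43 were 7 alpha and 7 beta subunits of the core, 6 ATPases and 11 other subunits of the cap, 3 cap assembly chaperones, 4 activators, 1 inhibitor and 4 core assembly chaperones. All 43 were among the 13499 genes tested.

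RNA was sequenced from tibialis anterior, the large fast-twitch muscle at the front of the mouse shin, in 3 groups of 4 libraries. The gel group received 50 µl of an extracellular matrix gel at 6 mg/ml in the left leg, the PBS group 50 µl of phosphate-buffered saline, the vehicle, in the right leg, and the third group was uninjured. The deposited names give the gel and PBS libraries of the same number the same animal number, read here as both legs of 1 animal, while the uninjured libraries came from other animals. Leg side therefore goes with treatment and cannot be told apart from it. The series title speaks of acute and of chronic disuse injuries, but the labels do not say which of them these muscles had, nor the time to collection, strain, age or sex.

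The core of the proteasome is a barrel of stacked rings: outer rings of alpha subunits gate the entry, and inner rings of beta subunits hold the proteolytic sites, of which Psmb5 carries the chymotrypsin-like, Psmb6 the caspase-like and Psmb7 the trypsin-like one. The cap binds the alpha ring, where its ATPases (the Psmc subunits) unfold substrates, and its other subunits (most Psmd genes) recognise and remove ubiquitin. Psme1 and Psme2 form an interferon-inducible activator that opens the gate without ATP, Psme3 forms a nuclear one, and Psme4 encodes a large nuclear activator. In skeletal muscle the ubiquitin-proteasome pathway carries out much of the breakdown of contractile proteins during wasting.

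Library totals ran from 15626086 to 22182483 counts, and the 43 genes took 0.271% to 0.354% of them. On the first principal component of log2 CPM (counts scaled to a common effective library size), gel 3 lay at -5.39, apart from the other gel libraries at 67.4 to 91.4 and nearer to the PBS libraries (-46.5 to -17.2) and uninjured ones (-37.1 to -21.5). The labelled tissue showed in its fibre genes, whose summed level over 10 markers was 176000 to 198000 CPM in uninjured, 146000 to 184000 CPM in PBS and 112000 to 151000 CPM in gel muscle. They did not move alike: in gel against PBS edgeR called 4 of the 10 lower and 1 higher. Mylpf had the highest log2 fold change, 0.41, at 11700 to 14200 CPM in gel and 8510 to 11000 CPM in PBS. All 12 macrophage markers were higher in gel than in PBS, at a summed 99.7 to 1830 CPM against 28.6 to 60.2 CPM, and gel 3 held the lowest gel value. Fibroblast markers summed to 519 to 3160 CPM in gel and 435 to 1120 CPM in PBS, with 3 of 8 called higher. None of 5 endothelial markers was called in gel against PBS by edgeR's quasi-likelihood test. None had an unadjusted p below 0.05, which 5639 of the 13499 genes tested had. Csf3r and Mmp9 were the 2 of 5 neutrophil markers with enough counts to test. Csf3r was called higher in gel against PBS and both had an unadjusted p below 0.05. All 5 markers together summed to 20.2 to 29 CPM in gel 1, 2 and 4, 0.855 CPM in gel 3 and 1.2 to 2.07 CPM in PBS. The untested S100a8, S100a9 and Retnlg reached at most 1.14, 0.568 and 0.0728 CPM in any gel library. Of T and NK cell markers, none of 6 was tested. Untested Cd4 stood at 8.2, 7.66, 0.488 and 7.21 CPM in gel 1 to 4 and at most 0.296 CPM in PBS. For Nkg7 the gel values were 3.19, 3.22, 0.122 and 2.55 CPM, against at most 0.458 CPM in PBS. Cd3e, Cd3g and Cd8a reached at most 0.142, 0.456 and 0.683 CPM in gel. How much these shifts in cell markers contribute to the values below was not tested, and in whole muscle fewer cells of a type cannot be told apart from less RNA per cell.

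Subunits of one complex differed widely in level even in uninjured muscle. Counts were divided by the median length of each gene's coding transcripts to compare genes, which gives CPM per kilobase. Psmb6 stood highest, at 183 ± 7.32 CPM per kilobase (SD, n = 4), followed by the cap subunit Psmd8 (173 ± 10.1), then by the beta subunits Psmb3 (144 ± 10.1) and Psmb2 (118 ± 4.56). The order depends in part on the length used. With merged exon length Psmb6 stayed highest at 183, but Psmd8 came to 120, below Psmb3 at 144. The activator Psme1 came to 55.5 instead of 86.8. By class the medians were 106 CPM per kilobase for beta subunits, 59 for cap ATPases, 53.7 for the other cap subunits, 48 for alpha subunits and 29.5 for activators. Psma2 was the lowest core subunit, at 14.3 ± 1.06 CPM per kilobase, and Psmd11, a cap subunit of the lid, the lowest in the cap, at 17.6 ± 1.81. The 8 assembly and inhibitor genes held the 8 lowest places, between 2.26 for the cap chaperone Psmd5 and 10.9 for the core chaperone Psmg2, and did so as well when merged exon length was used. By median transcript length, neighbours in the order often overlapped: Psmb6 at 172 to 188 and Psmd8 at 159 to 182 CPM per kilobase shared part of their ranges, as did Psme4 (25.9 to 28) and Psmd13 (25.7 to 28.7).

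**Figure D1:**
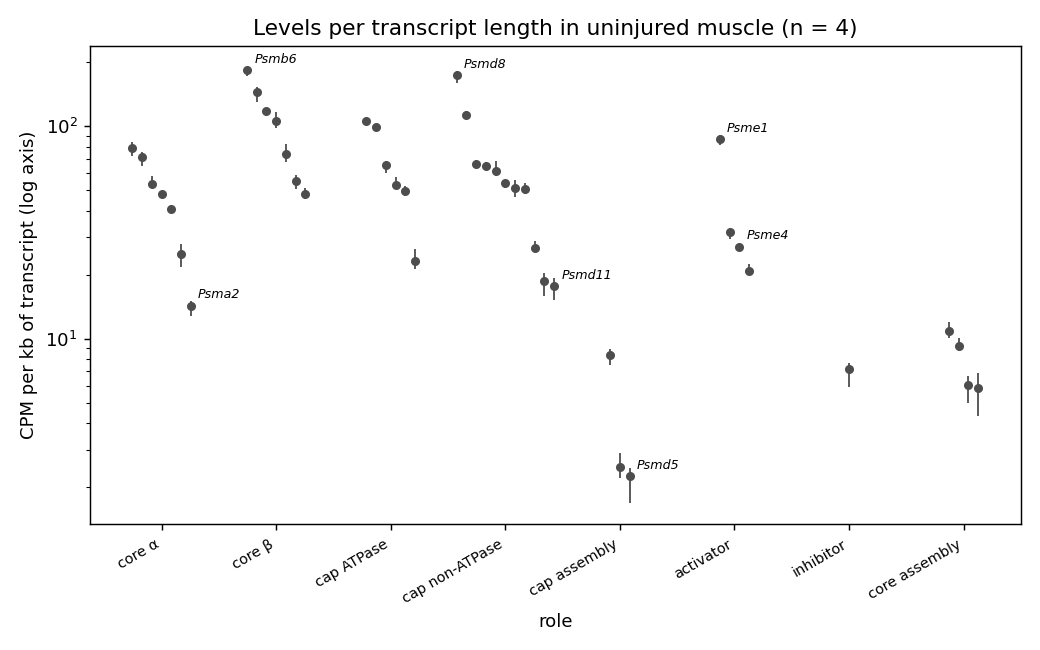
Level of each of the 43 proteasome genes in uninjured muscle, as CPM per kilobase of transcript on a log axis, by role; points are means of 4 libraries and bars run from the lowest to the highest library. Psmb6 stands highest at 183 CPM per kilobase, and the assembly genes and the inhibitor all lie at or below 10.9.

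The 2 genes that missed the count minimum are tissue-restricted core subunits. Psma8, the alpha subunit of testis, had 1 count in uninjured 2, 2 in PBS 3, 4 in gel 4 and 0 elsewhere. If counts are independent single events, a count of 0 allows 3 counts, which equal 0.109 to 0.203 CPM depending on the library. Psmb11, the beta subunit of thymic epithelium, had 10 counts in gel 2, 6 in gel 4 and 0 in the other 10 libraries. Just inside the minimum lay Psmg4, a core assembly chaperone, with a lowest count of 16 (PBS 2), and the same 43 genes had at least 10 counts in all 12 libraries.

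The first comparison set PBS-injected against uninjured muscle. These groups differ by label in injury and injection and came from different animals, and these differences cannot be told apart. The words after PBS are used below only as a name for this contrast. Here the alpha subunits Psma3 and Psma7 fell, and no other of the 43 genes passed the threshold, an adjusted p below 0.05 by edgeR's quasi-likelihood test with Benjamini-Hochberg adjustment over all genes tested. Of all 13499 genes 2.79% were called higher and 3.39% lower, so that 0 higher and 2 lower of 43 lay near that background. Beyond these, 4 genes had an unadjusted p below 0.05 without passing. With the 2 called this made 6 of 43, against 3029 of the 13499 genes tested. DESeq2 and upper quartile scaling each called 1 gene higher, Psmd11, and 2 lower, while limma voom called 0 and 2. The lower count fell to 1 without uninjured 1, 2 or 4 or PBS 3 and to 0 without uninjured 3, PBS 1 or PBS 2. The median log2 fold change was -0.18 over the 14 core genes, with 12 of 14 below zero, -0.08 over the 17 cap genes and 0.0008 over all genes.

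Psma7, an alpha-ring subunit, stood at 54.4, 53.2, 60.3 and 52.7 CPM in uninjured replicates 1 to 4 and at 37.1, 31.9, 39.6 and 45.7 CPM in PBS 1 to 4. Every PBS library was below every uninjured one, with a log2 fold change of -0.52 ± 0.12 (SE, adjusted p = 0.0154 by edgeR). Psma3, another alpha-ring subunit, had 89.5, 84.4, 91.1 and 90.9 CPM in uninjured muscle and 58.7, 60.4, 67.8 and 72.3 CPM after PBS, also without overlap. Its log2 fold change was -0.46 ± 0.11 (SE, edgeR adjusted p = 0.0249). Neither call was firm against single libraries: that of Psma7 was lost without uninjured 3, PBS 1 or PBS 2 (edgeR adjusted p 0.0544 to 0.0657), and that of Psma3 without any of 7 libraries, all but PBS 4 among the 8 compared (0.05 to 0.0931).

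The catalytic beta subunits did not pass the test. Psmb5 had a log2 fold change of -0.22 ± 0.13, Psmb6 of -0.24 ± 0.11 and Psmb7 of -0.17 ± 0.14, with edgeR adjusted p of 0.361, 0.209 and 0.502. Each had PBS 1 and PBS 2 below all uninjured libraries and PBS 3 and PBS 4 near or within their range. For Psmb7 that meant 97.2 and 91.8 CPM in PBS 1 and 2, 123 and 126 CPM in PBS 3 and 4, and 114 to 135 CPM in uninjured muscle.

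In the cap, Psmd11, a lid subunit known to promote the joining of cap and core, had the highest log2 fold change of all 43 genes. It stood at 41.7, 43.2, 38.4 and 34.1 CPM in uninjured muscle and at 58.4, 54.6, 52.2 and 73.7 CPM after PBS, so the groups did not overlap. Its log2 fold change of 0.60 ± 0.19 missed the threshold in the 12-library fit (edgeR adjusted p = 0.0709). It passed without gel 1 or without gel 3 (0.0146 to 0.018), libraries outside this comparison that enter the shared estimate of spread, and when only the 8 libraries compared were fitted (0.00115). Psmd4, a ubiquitin receptor of the cap, was below uninjured in every PBS library, at 104, 99.7, 134 and 143 CPM against 146 to 156 CPM. It was not called in the 12-library fit (log2 fold change -0.32 ± 0.14, edgeR adjusted p = 0.186). Psmd4 passed as lower when only the 8 libraries compared were fitted (0.0485) and with the replicate number as a block in these (0.0347). The ATPase Psmc4 (-0.24 ± 0.13, 0.274) and the deubiquitinase Psmd14 (-0.08 ± 0.12, 0.728) overlapped between groups. No cap gene was called by edgeR in the 12-library fit, while 3 of 17 had an unadjusted p below 0.05, against 3029 of all 13499 genes. Over all 43 genes, 2 had PBS libraries all above the uninjured ones and 4 all below, against 10.4% and 10.2% of all genes.

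The activators, the inhibitor and the chaperones gave no call either, nor an unadjusted p below 0.05. Log2 fold changes after PBS were 0.13 ± 0.13 for Psme1, -0.33 ± 0.17 for Psme2, 0.15 ± 0.13 for Psme3 and -0.04 ± 0.18 for Psme4, with edgeR adjusted p of 0.633, 0.27, 0.562 and 0.931. The inhibitor Psmf1 stood at 0.07 ± 0.13 (0.821). Core chaperones ranged from -0.40 ± 0.33 for Psmg4 to 0.16 ± 0.17 for Psmg2, between them Psmg3 at -0.26 ± 0.27 and Psmg1 at -0.08 ± 0.17, all with an edgeR adjusted p of 0.513 or higher.

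The second comparison, gel against PBS, asked how the gel differed from its vehicle. Activators moved in opposite directions: Psme2 rose and Psme4 fell. The beta subunit Psmb6 rose, the beta subunit Psmb2 fell, and the cap subunits Psmd3, Psmd7 and Psmd11 fell. This made 2 of 43 higher and 5 lower, against 16.6% and 13.2% of all genes, so that the share higher was below the background and the share lower near it. An unadjusted p below 0.05 was found for 12 of the 43, against 5639 of the 13499 genes tested. Medians were 0.03 for the core, -0.20 for the cap, 0.01 for the activators, 0.15 for the assembly and inhibitor genes and 0.04 for all genes, in log2 units. In the cap, 15 of 17 genes had a negative log2 fold change, against 6 of 14 in the core. Gel libraries were all above the PBS ones in 3 of 43 genes and all below in 3, against 10.4% and 9.74% of all genes.

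**Figure D2:**
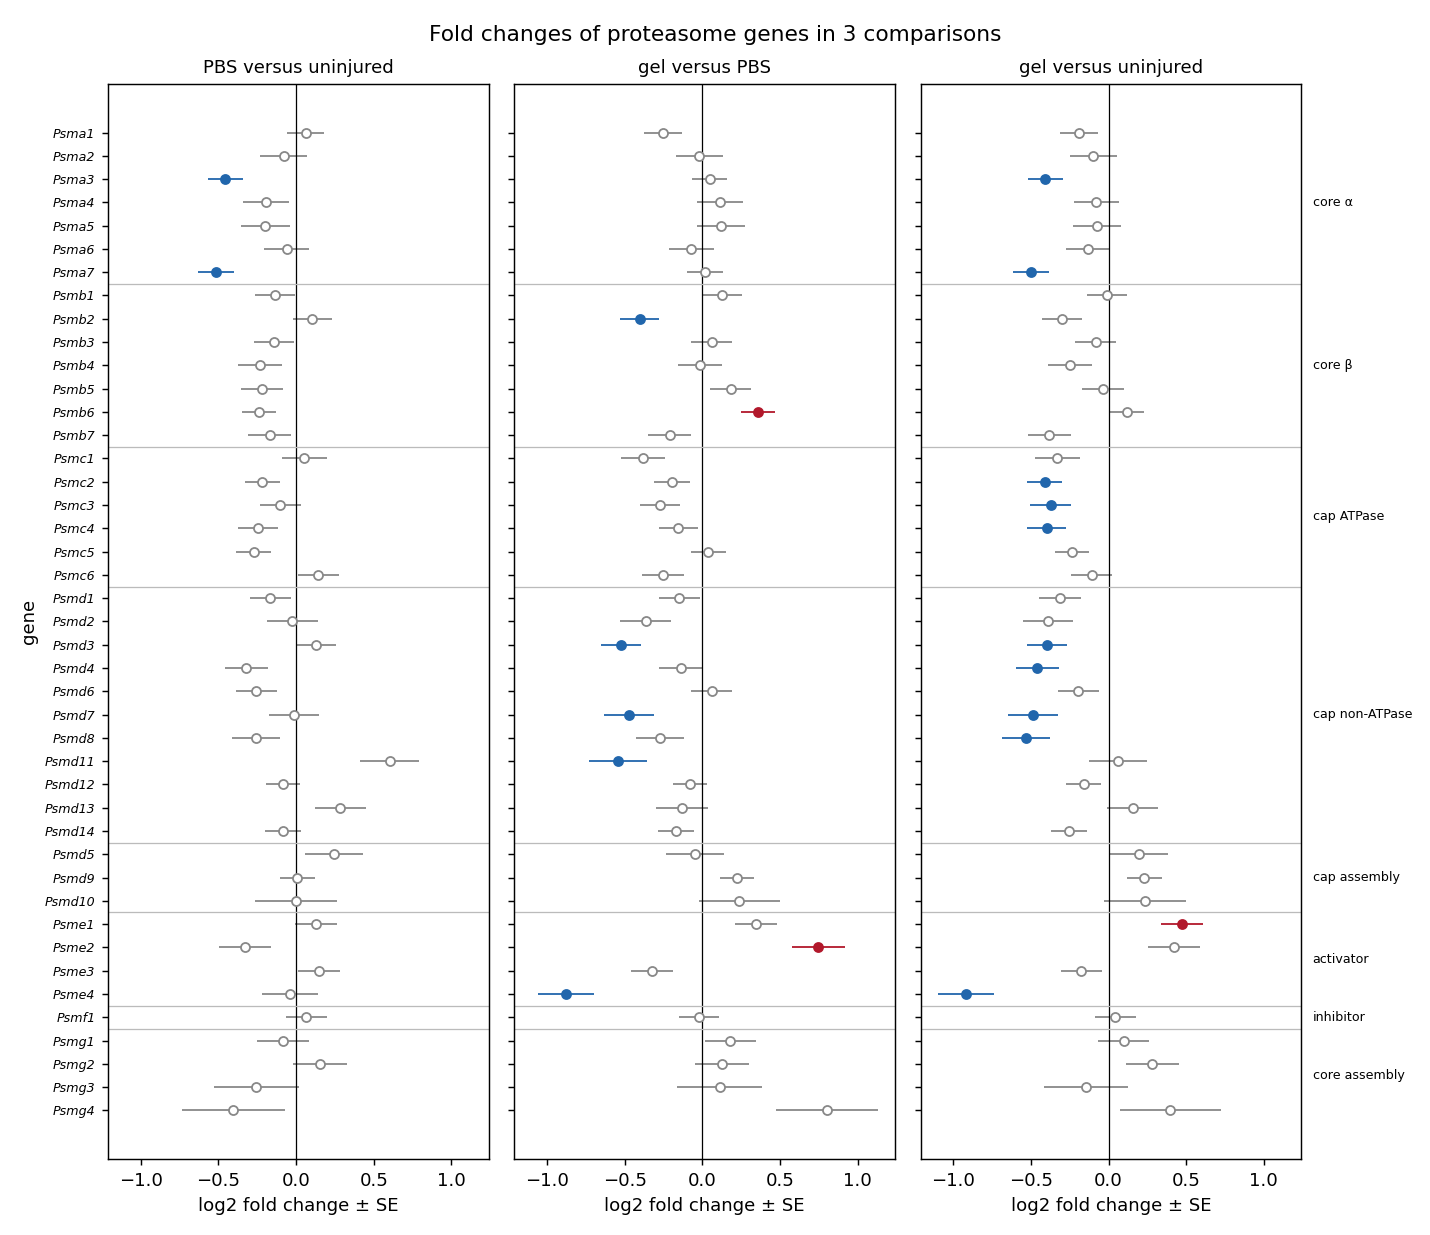
Log2 fold change of each of the 43 genes with its SE in the 3 comparisons, ordered by role; filled points passed an edgeR adjusted p of 0.05 (red higher, blue lower) and open points did not. Psma3 and Psma7 are the filled points of the first panel, and the 3 comparisons share groups, so the panels are not independent.

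Psme4 had the lowest log2 fold change of the 43. It stood at 174, 147, 191 and 174 CPM in PBS 1 to 4 and at 67.4, 104, 132 and 69.7 CPM in gel 1 to 4. All gel libraries were below all PBS libraries, with gel 3 the closest. This was a log2 fold change of -0.88 ± 0.18, a fall to 0.544 of the PBS level (edgeR adjusted p = 0.00361), and the call held without any single library.

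Psme2, the partner of Psme1 in the interferon-inducible activator, went the other way. Its level was 11, 15.1, 14.1 and 18.4 CPM in PBS and 20.2, 30.7, 20 and 27.2 CPM in gel, again with no overlap. It rose 1.68-fold, a log2 change of 0.75 ± 0.17 (edgeR adjusted p = 0.00514), and no single library decided the call. A retrocopy, Psme2b, took 5.09% to 13.7% of the counts of both genes together and was not called itself (0.21 ± 0.35, 0.676), but no source used here says how reads that match both genes were counted.

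Psme1 was at 65, 71.9, 66.1 and 66.3 CPM in PBS and at 108, 85.6, 63.4 and 85.3 CPM in gel, where gel 3 lay below every PBS library. It was not called (0.35 ± 0.13, edgeR adjusted p = 0.0623) but passed without gel 3 (0.00249) and with upper quartile scaling (0.0472). Psme3 was not called either (-0.32 ± 0.13, edgeR adjusted p = 0.079), and passed as lower without gel 3 (0.00428) and with DESeq2 (0.0483). Gel 3 held 93.1 CPM of Psme3, the other gel libraries 59.6 to 73.8 CPM, and PBS 79.8 to 104 CPM.

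Among catalytic core genes, Psmb6 rose from 111, 110, 134 and 138 CPM in PBS to 152, 154, 168 and 157 CPM in gel. The groups did not overlap, and the gel libraries were also above the uninjured ones at 137 to 150 CPM. Its log2 fold change was 0.36 ± 0.11 (edgeR adjusted p = 0.0244). Psmb2, a beta subunit without proteolytic activity, fell from 94.1, 97.8, 124 and 118 CPM to 83.7, 67.9, 94.8 and 81.7 CPM, with gel 3 just above the lowest PBS library (-0.40 ± 0.13, 0.0257). Psmb5 (0.18 ± 0.13, 0.322) and Psmb7 (-0.21 ± 0.14, 0.258) were not called, and Psmb7 passed as lower without gel 3 (0.031). Psma3 and Psma7, the genes that fell after PBS, stood at 0.05 ± 0.11 and 0.02 ± 0.12 in gel against PBS. None of the 7 alpha subunits passed the edgeR test, and none had an unadjusted p below 0.05. The call of Psmb6 was lost without PBS 1, PBS 2, gel 2 or gel 4 (edgeR adjusted p 0.0623 to 0.0905), and that of Psmb2 without PBS 3, PBS 4, gel 2 or gel 4 (0.0537 to 0.0815).

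Of the 11 non-ATPase cap genes 3 fell, and of the 6 ATPases none passed the edgeR test, with 1, Psmc1, at an unadjusted p below 0.05 (adjusted p = 0.0561). Psmd3, a lid subunit, stood at 106, 113, 136 and 123 CPM in PBS and at 69, 80.4, 102 and 79.6 CPM in gel. The ranges were apart by a small margin, since gel 3 was just below PBS 1. Psmd3 fell by 0.53 ± 0.13 on the log2 scale (edgeR adjusted p = 0.00804) and passed the threshold without each library in turn.

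Psmd7, which pairs with the deubiquitinase Psmd14, was at 90.4, 90.8, 125 and 98.5 CPM in PBS and 49.9, 73.6, 94 and 73.8 CPM in gel, so that gel 3 lay within the PBS range (-0.47 ± 0.16, edgeR adjusted p = 0.0384). Psmd11 was at 25.5, 45, 54.9 and 38.7 CPM in gel, of which gel 3 alone reached the PBS range of 52.2 to 73.7 CPM (-0.54 ± 0.19, 0.0406). Compared with its uninjured level of 34.1 to 43.2 CPM, Psmd11 was thus above it in all PBS libraries and on either side of it in gel. The call of Psmd7 was lost without PBS 3, PBS 4 or any gel library but gel 3 (0.0561 to 0.126), and that of Psmd11 without any of 8 libraries, among them PBS 1, 2 and 4 and gel 1, 2 and 4 (0.0503 to 0.108). Psmc4 (-0.15 ± 0.13, 0.38), Psmd4 (-0.14 ± 0.14, 0.48) and Psmd14 (-0.17 ± 0.12, 0.279) did not pass the edgeR test.

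Chaperones and the inhibitor did not pass in gel against PBS, and 1 of the 8 had an unadjusted p below 0.05, against 5639 of all 13499 genes. Psmg4 had the highest log2 fold change of the 43 at 0.80 ± 0.33 (edgeR adjusted p = 0.0745), from 2.27, 0.87, 2.63 and 3.72 CPM to 4.78, 4.26, 3.48 and 4.01 CPM. These rest on few counts, and PBS 2 was the low end. Psmg1 (0.18 ± 0.17, 0.434), Psmg2 (0.13 ± 0.17, 0.612), Psmg3 (0.11 ± 0.27, 0.787) and Psmf1 (-0.02 ± 0.13, 0.915) overlapped.

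Since both legs came from the same animals, gel and PBS were also compared with the animal as a block. Then 1 gene was higher (Psme2) and 3 were lower (Psme4, Psmd3 and Psmd7), against 12.4% and 10% of the 13233 genes tested in that fit, while Psmb6, Psmb2 and Psmd11 had edgeR adjusted p of 0.0842, 0.0613 and 0.0709. Without gel 3, in turn, 4 of 43 were higher and 12 lower, against 22.7% and 20% of all genes, and 8 of 17 cap genes were lower. The median of the 43 was -0.05, moved to -0.09 without gel 3, and turned to 0.03 without gel 1. The count of 5 lower became 3 without PBS 3, gel 1 or gel 4 and 2 without PBS 4 or gel 2, and the count of 2 higher became 1 without PBS 1, PBS 2, gel 2 or gel 4.

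**Figure D3:**
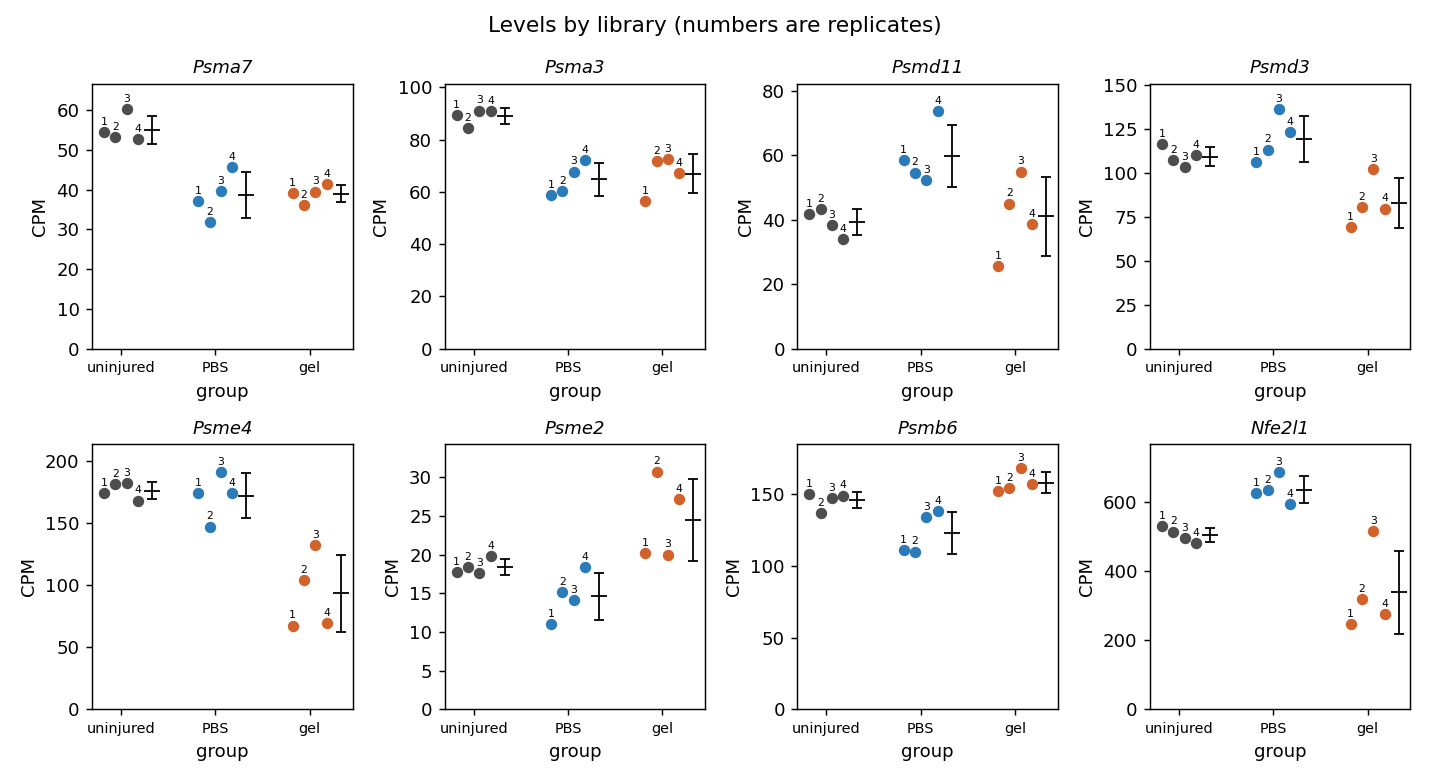
CPM by library for 7 proteasome genes and for Nfe2l1, by group, with mean and SD at the right of each group and replicate numbers over the points. Gel 3 is the gel library nearest to PBS for Psme4, Psmd3, Psmd11 and Nfe2l1.

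The third comparison set gel against uninjured muscle, and shares libraries with both others. Injury, injection and animal cannot be told apart in it either. Psme1 rose, and 10 genes fell: Psma3 and Psma7 in the core, Psme4 among the activators, and 7 of 17 cap genes, the ATPases Psmc2, Psmc3 and Psmc4 and the non-ATPases Psmd3, Psmd4, Psmd7 and Psmd8. Over all genes 14.5% were called higher and 11.1% lower. The median log2 fold change was -0.33 over the cap, -0.11 over the core, 0.12 over the activators, 0.21 over assembly genes and inhibitor and 0.03 over all genes. In the cap 15 of 17 values were negative, and 9 of 17 genes had gel libraries all below the uninjured ones. Over the 43 genes, 4 had all gel libraries above the uninjured ones and 14 all below, against 11.3% and 11.7% of all genes.

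Psmd8, a lid subunit, had 277, 242, 272 and 266 CPM in uninjured muscle and 125, 203, 197 and 206 CPM in gel 1 to 4. Gel 1 was far below the other gel libraries, and all were below the uninjured ones. Psmd8 had a log2 fold change of -0.53 ± 0.16 (edgeR adjusted p = 0.0198), and was called without gel 1 too. Psmd4 went from 156, 150, 146 and 148 CPM to 90.5, 103, 131 and 112 CPM, without overlap (-0.46 ± 0.14, 0.025).

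The 3 ATPases belong to the ring that threads substrates into the core. Psmc2 was at 83.3 to 93.2 CPM in uninjured and at 60.3, 62.2, 77.8 and 65.6 CPM in gel muscle (-0.41 ± 0.11, edgeR adjusted p = 0.0154). Psmc4 held 131, 134, 132 and 133 CPM in uninjured muscle, the tightest spread of the 43, and 93.5, 94.3, 111 and 102 CPM in gel (-0.40 ± 0.13, 0.0308). Psmc3 dropped from 165 to 175 CPM to 106, 124, 162 and 135 CPM (-0.37 ± 0.13, 0.0468). In each of the 3, gel 3 was the gel library nearest to uninjured.

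Psme4 fell by 0.92 ± 0.18 on the log2 scale against uninjured (168 to 182 CPM, edgeR adjusted p = 0.00245). Psma7 (-0.50 ± 0.12, 0.00631) and Psma3 (-0.41 ± 0.11, 0.0153) stood about where they had after PBS, at 36.2 to 41.3 CPM and 56.4 to 72.6 CPM. Psmd7 (-0.49 ± 0.16, 0.0375) and Psmd3 (-0.39 ± 0.13, 0.0348) completed the genes that fell. Psme1 rose by 0.47 ± 0.13 (0.018) from 58.1 to 64.4 CPM, although gel 3 at 63.4 CPM lay inside the uninjured range. Psme2 (0.42 ± 0.17, 0.0777), Psmb7 (-0.38 ± 0.14, 0.0516) and Psmb6 (0.12 ± 0.11, 0.47) did not pass the edgeR test.

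Calls that were lost without 1 library in this comparison were those of Psmd3, Psmc4 and Psmd7 (without any uninjured library or gel 1, 2 or 4), Psmc3 (without these, PBS 2 or PBS 3), Psmd4 (uninjured 1 or 2, gel 1 or 2) and Psme1 (uninjured 2 or 4), with edgeR adjusted p between 0.0521 and 0.113. Those of Psme4, Psma7, Psma3, Psmc2 and Psmd8 held without each library in turn. Without gel 3, 2 of 43 genes were higher and 17 lower, 11 of them in the cap, against 20.4% and 17.9% of all genes. The count of 10 lower was 5 without uninjured 1, uninjured 2, gel 1 or gel 2 and 6 without uninjured 3, uninjured 4 or gel 4.

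Within a group, many of the 43 genes put the libraries in the same order. In uninjured muscle the median coefficient of variation of the 43 genes was 6.06%, and in PBS and gel it was 14.5% and 15.5%. Replicates spread wider over all genes as well. Between pairs of replicates, chi-square per gene was 6.5 to 12.6 in uninjured, 15.6 to 33.2 in PBS and 26.5 to 119 in gel muscle. PBS 3 and PBS 4 were both above PBS 1 and PBS 2 in 32 of 43 genes (74.4%), an order that 21.6% of all genes tested showed. In the gel group, gel 3 was the highest library in 30 of 43 genes and gel 1 the lowest in 29, against 34.4% and 28.3% of all genes. For the cap alone gel 3 was highest in 16 of 17 and gel 1 lowest in 15 of 17.

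**Figure D4:**
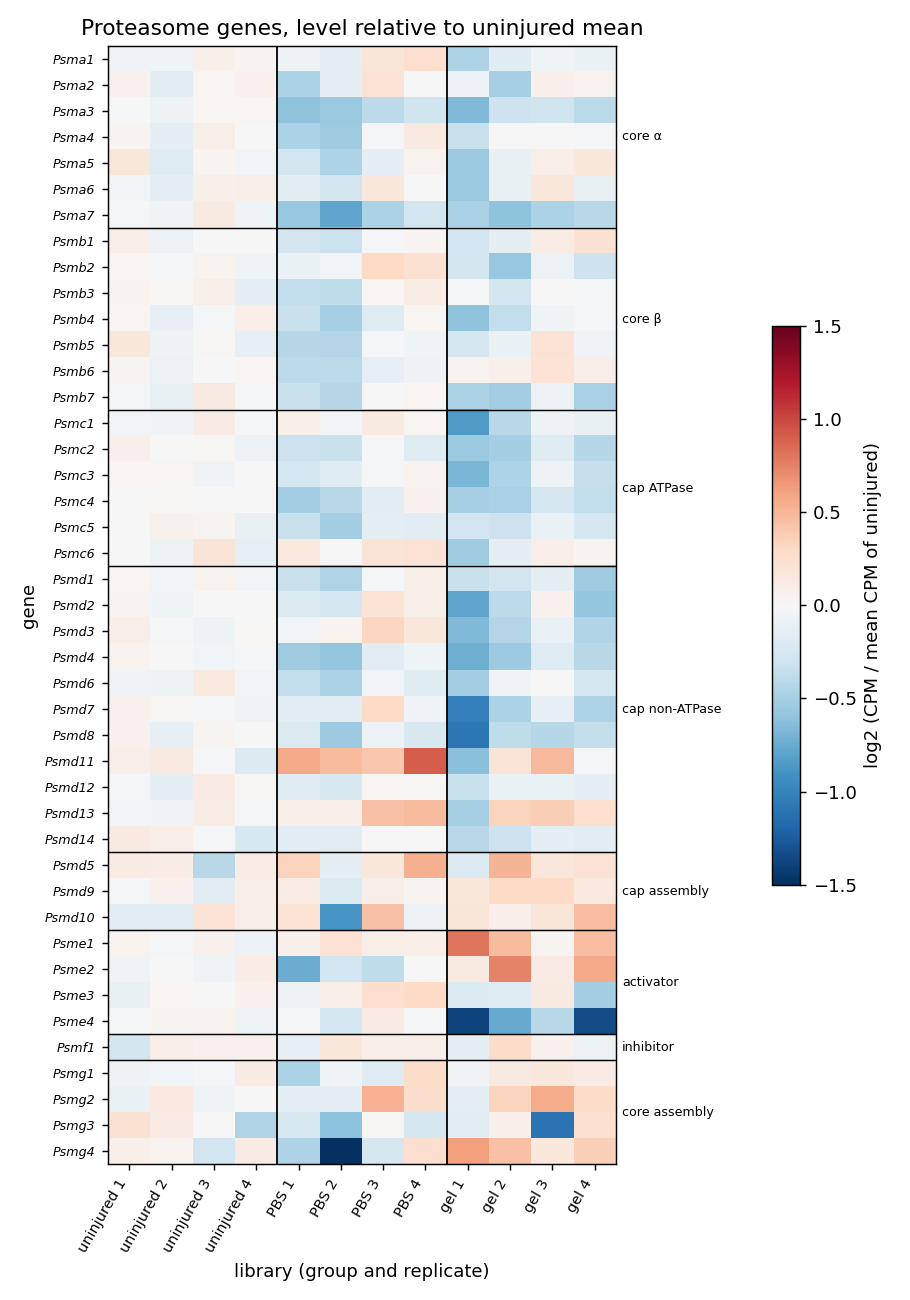
Each of the 43 genes (rows, by role) in each of the 12 libraries (columns), as log2 of its CPM over the mean CPM of the uninjured libraries; red is above, blue below, and the scale ends at 1.5 in each direction. PBS 1 and PBS 2 are bluer than PBS 3 and PBS 4 in most core rows, and gel 1 is the bluest gel column in 15 of 17 cap rows.

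Immunoproteasome subunits replace the 3 catalytic ones when interferon signalling is high: Psmb8 takes the place of Psmb5, Psmb9 that of Psmb6 and Psmb10 that of Psmb7. Psmb8 rose in gel against PBS by 1.62 ± 0.41 (edgeR adjusted p = 0.0117) and Psmb9 by 1.29 ± 0.41 (0.0273, and 0.0926 with the animal as a block), while Psmb10 was not called (0.43 ± 0.17, 0.0699). The call of Psmb9 was also lost without PBS 1, 3 or 4 or gel 1, 2 or 4 (0.0565 to 0.0843). Each was set against its constitutive partner within each library. Counts of Psmb8 came to 34.3%, 29.8%, 6.42% and 31.2% of those of Psmb5 in gel 1 to 4, to 10.2%, 17.1%, 4.79% and 5.86% in PBS 1 to 4, and to 8.89% to 13% in uninjured muscle. Gel 1, 2 and 4 were above every PBS library, and gel 3 was within their range.

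For Psmb9 to Psmb6 the gel libraries gave 5.15%, 5.67%, 1.03% and 4.59%, and PBS 1.16% to 3.58%. For Psmb10 to Psmb7 the values were 19.7%, 15.2%, 11.1% and 22% in gel and 9.26% to 13.1% in PBS. Gel 3 was the lowest gel library in all 3 ratios. Exact two-sided permutation tests of the log2 ratio over 4 against 4 libraries gave differences of 1.34 (p = 0.0857), 0.76 (p = 0.314) and 0.63 (p = 0.0571), or 0.129, 0.314 and 0.129 after adjustment over the 3 ratios, where 0.0286 is the smallest p the design allows. Exact sign flips within animals gave 0.125, 0.375 and 0.125, and cannot go below 0.125. None of the 3 passed the permutation test, and the sign flips could not have passed at 0.05.

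**Figure D5:**
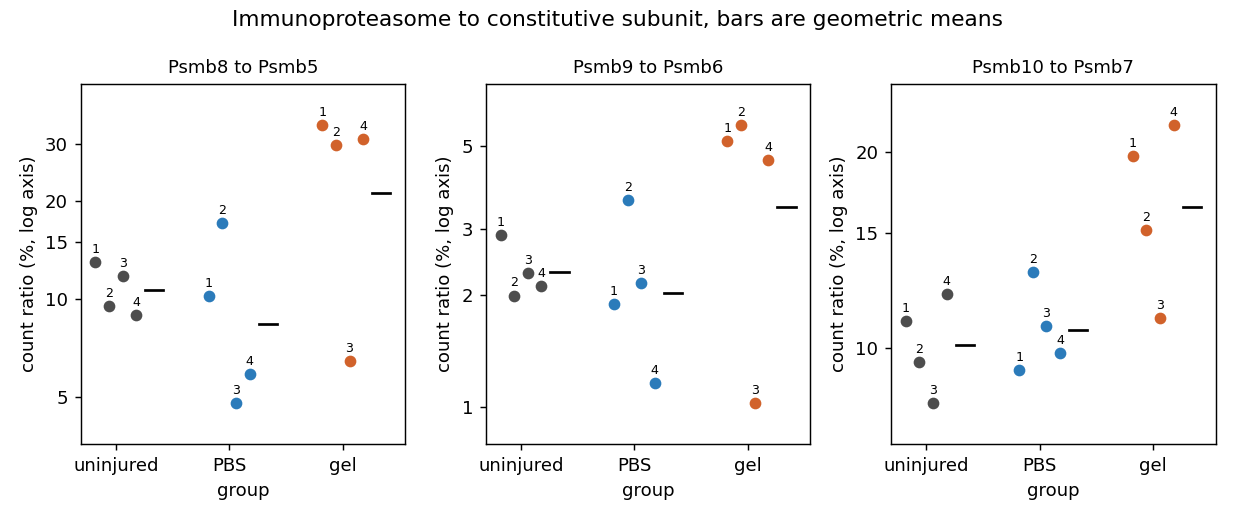
Counts of each immunoproteasome subunit as a percentage of those of the constitutive subunit it replaces, by library on a log axis, with geometric means as bars. Gel 1, 2 and 4 lie above all PBS libraries in each panel, and gel 3, at 6.42%, 1.03% and 11.1%, lies lower.

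A list of 25 further genes acts with the proteasome, as cap components outside the Psm names, shuttle proteins, ligases bound to it and regulators of its genes. The list was drawn up with earlier results of these data known. Its counts, here and below, therefore describe these genes and are no test of the list against all genes. After PBS, 3 of 25 passed the edgeR test against uninjured, all of them higher, where 2.79% of all genes were called higher and 3.39% lower: the shuttle factors Ubqln2 (1.05 ± 0.16, edgeR adjusted p = 0.00155) and Ubqln1 (0.53 ± 0.14, 0.0319) and the proteasome-bound ligase Ube3c (0.61 ± 0.16, 0.0353). The call of Ubqln1 was lost without any 1 of the uninjured libraries or PBS 1, 2 or 3 (edgeR adjusted p 0.0575 to 0.117), and that of Ube3c without any 1 of these or gel 2 (0.0502 to 0.111), while Ubqln2 passed with each library left out. In gel against PBS 1 rose and 15 fell, with a median of -0.44, against 16.6% and 13.2% of all genes. With the animal as a block 0 were higher and 12 lower, against 12.4% and 10% of the 13233 genes tested in that fit. In the 12-library fit, the 15 that fell included Ubqln2 (-1.18 ± 0.16, edgeR adjusted p = 0.001), Ubqln4 (-1.05 ± 0.17, 0.00144), the protease Ddi2 (-1.61 ± 0.27, 0.00186), Ube3c (-0.87 ± 0.16, 0.00245) and the shuttle factor Rad23b (-0.80 ± 0.16, 0.00349). Ubqln2 went from 9 to 11.3 CPM in uninjured muscle to 25, 20.6, 20.7 and 17.6 CPM after PBS and to 8.54, 10.6, 10.9 and 7.06 CPM in gel, so that the PBS libraries stood above all others. The gene that rose was Sem1, the smallest cap subunit (0.37 ± 0.12, 0.0291, and 0.0743 with the animal as a block).

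Nfe2l1, the transcription factor that raises proteasome gene expression when activity is short and that Ddi2 cleaves into its active form, stood at 481 to 530 CPM in uninjured muscle. In PBS 1 to 4 it was at 626, 636, 687 and 595 CPM and in gel 1 to 4 at 248, 319, 516 and 276 CPM. All PBS libraries were above all others, and gel 3 was the highest of the gel libraries. Nfe2l1 fell in gel against PBS (-0.91 ± 0.18, edgeR adjusted p = 0.00344) and against uninjured (-0.57 ± 0.18, 0.0313), and was not called in PBS against uninjured (0.33 ± 0.18, 0.307). The call against uninjured was lost without any 1 of the uninjured libraries or gel 1, 2 or 4 (edgeR adjusted p 0.0543 to 0.0909) and in those 2 groups alone (0.0575). In PBS against uninjured Nfe2l1 passed as higher without gel 3 (0.0413) and in the 2 groups alone (0.00904). Adrm1, a ubiquitin receptor of the cap, fell in gel against PBS (-0.50 ± 0.15, 0.0214) and uninjured (-0.55 ± 0.15, 0.0139), and the call against PBS was lost without PBS 3, PBS 4, gel 2 or gel 4 (0.0574 to 0.0663). Pomp, the maturation factor of the core, did not pass in any comparison, with log2 fold changes of -0.06 ± 0.14, 0.14 ± 0.14 and 0.07 ± 0.14 in PBS against uninjured, gel against PBS and gel against uninjured.

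Against uninjured, gel muscle had 10 of the 25 lower and 1 higher, where 11.1% of all genes were lower and 14.5% higher. The higher gene was Akirin2, which brings proteasomes into the nucleus (0.56 ± 0.13, edgeR adjusted p = 0.00722). The ligase Kcmf1 (-0.97 ± 0.18, 0.00149), the proteasome-binding Zfand5 (-0.68 ± 0.15, 0.00445) and Ecpas, an adaptor of the assembled proteasome (-0.53 ± 0.13, 0.00873), were among those that fell. Among genes for ubiquitin and its activation, the conjugating enzyme Ube2d1 rose after PBS (0.64 ± 0.17, 0.0357), a call lost without any 1 of the uninjured or PBS libraries or gel 2 (0.052 to 0.115). In gel against PBS the conjugating enzymes Ube2b (-0.52 ± 0.17, 0.0321) and Ube2d3 (-0.39 ± 0.13, 0.0383, and 0.0803 with the animal as a block) fell. Ube2b was not called without PBS 3, PBS 4, gel 1, gel 2 or gel 4 (0.0663 to 0.0976). Ube2d3 was not called without uninjured 2 or 3, any 1 of the PBS libraries, gel 1 or gel 4 (0.0502 to 0.104).

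Nfe2l1 binds antioxidant response elements, so the promoters of the 43 genes were searched for the core of that element, TGACNNNGC, and for the CCAAT box, CCAAT, on both strands in the 250 bases before the start. Neither motif contains the other. RefSeq promoter entries of build GRCm38.p6 were matched for 36 of the 43 genes. Psmb1, Psmb2, Psmb7, Psmc3, Psmd3, Psmd7 and Psmg2 had no entry and were not searched. Of these, Psmb2, Psmd3 and Psmd7 were among the genes that fell in gel against PBS. The element core was present in 5 of 36 genes (13.9%), against 10.2% of 32851 promoters, and the CCAAT box in 12 of 36 (33.3%), against 33.8%. These shares were not counted alike. A gene of the 36 counted if any of its promoter entries matched, with 39 entries among them, while the 32851 promoters were counted singly. The 5 windows with the element core are shown because they include Psmb6, the core gene that rose in gel, with the match in capitals and the gene's strand read 5′ to 3′. On the opposite strand the match reads as its reverse complement, as in Psmc6 and Psmd12.
Psmb6, chr11:70525323-70525356, plus strand: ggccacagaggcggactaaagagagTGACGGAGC
Psmb5, chr14:54618009-54618067, minus strand: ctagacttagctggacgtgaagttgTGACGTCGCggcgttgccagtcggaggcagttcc
Psmd9, chr5:123228134-123228189, plus strand: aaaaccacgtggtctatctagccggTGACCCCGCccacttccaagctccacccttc
Psmc6, chr14:45329574-45329630, plus strand: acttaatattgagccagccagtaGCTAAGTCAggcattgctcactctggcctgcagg
Psmd12, chr11:107479278-107479314, plus strand: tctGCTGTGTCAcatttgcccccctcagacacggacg

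In these 5 genes the match began 9 bases before the start in Psmb6, 31 in Psmd9, 47 in Psmb5, 227 in Psmc6 and 247 in Psmd12. Their log2 fold changes in gel against PBS were 0.36 for Psmb6, 0.22 for Psmd9, 0.18 for Psmb5, -0.25 for Psmc6 and -0.08 for Psmd12, and the first alone passed the edgeR test. The 2 alpha subunits that fell after PBS both held a CCAAT box, in capitals here, 139 bases before the start in Psma3 and 196 bases before it in Psma7. Psma1, Psma2 and Psma6 held one too and were not called after PBS, at log2 fold changes of 0.06, -0.08 and -0.06.
Psma3, chr12:70974459-70974513, plus strand: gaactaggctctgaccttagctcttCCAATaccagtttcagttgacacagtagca
Psma7, chr2:180042631-180042685, minus strand: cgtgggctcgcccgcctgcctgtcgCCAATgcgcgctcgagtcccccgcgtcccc
These matches are letters in a sequence and were not tested for binding.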

How the data were processed

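The deposited files hold whole-number read counts per gene symbol, 1 file for each of 12 libraries; the authors had not normalised these counts. Alignment used STAR with the mm39 build, and edgeR is named too, per the submitters' processing notes, which give no versions. Which program counted reads, whether by strand, and how it handled multiple matches is not given in the sources used here, so genes that overlap or have near-identical copies are uncertain. Totals were 15626086 to 22182483 counts, and no replicates of a group agreed within sampling noise (chi-square per gene of 6.5 or higher).

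The analysis used edgeR 4.0.16 (R 4.3.3): filterByExpr (13499 genes), trimmed-mean scaling, a robust quasi-likelihood fit of all 12 libraries with 1 coefficient for each group and 9 residual degrees of freedom, and Benjamini-Hochberg adjustment over all genes, threshold 0.05. SE is the absolute log2 fold change over the square root of F. CPM uses effective library sizes, and ratios of counts had 0.5 added to each count. The procedure was tested on simulated data. Lengths came from the reference annotation of another build, used for names and lengths only, and promoters from RefSeq.

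Genes were named by rule: members past the threshold, the catalytic and other listed subunits, activators, inhibitor and core chaperones, the extremes, and up to 6 partners per list. The members and lists were chosen with earlier results of these data known. Where nothing states separate animals, p-values measure the spread between libraries. Same-numbered gel and PBS libraries carry 1 animal number in the deposited names, and their deviations correlated at 0.143, -0.0559, 0.311 and 0.0797. Alternatives were other scalings (DESeq2 size factors, upper quartile), filters, tests (DESeq2 1.42.0, limma 3.58.1 voom), the groups compared alone, the replicate block, and each library left out.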

Additional observations from a re-analysis of the deposited data

Results flagged for a closer look

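In 7 of 99 groups of 4 values for named genes, 1 library lay apart from the other 3 by more than Dixon's 95% limit for the gap over the range; chance flags about 1 in 20 groups. In the gel group gel 3 stood high for Psmb7, at 116 CPM against 86 to 88.4 CPM, for Ddi2, at 5.13 CPM against 2.51 to 2.93 CPM, and for Ubqln4, at 130 CPM against 72.7 to 81.1 CPM, and low for Psmb8, at 4.15 CPM against 15.5 to 16.9 CPM. Gel 1 stood low for Psmd8, at 125 CPM against 197 to 206 CPM. In uninjured muscle replicate 1 was low for the inhibitor Psmf1, at 15.4 CPM against 19.4 to 20 CPM, and for Ddi2, at 4.83 CPM against 7.44 to 7.91 CPM.

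Psmb11, the core subunit of thymic epithelium, was too low to be tested, yet had 10 counts in gel 2 and 6 in gel 4, above the 3 counts that a count of 0 allows, and 0 in all PBS and uninjured libraries.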

How the results depend on the processing

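The call counts depend on the setting more than the medians do. In PBS against uninjured, the genes called higher were 1 rather than 0 with upper quartile scaling, DESeq2, the 2 groups alone or the replicate block. Those called lower were 3 in the 2 groups alone and 4 with the replicate block, rather than 2. For the uninjured group the block pairs numbers and not animals: deviations of same-numbered libraries correlated at 0.00773 to 0.0882 with PBS and -0.0366 to 0.167 with gel, and not every library correlated best with its own number. In gel against PBS, the higher count of 2 became 1 without the low-count filter, in the 2 groups alone and with the replicate block, and 3 with upper quartile scaling or limma voom. The lower count of 5 became 2 in the 2 groups alone, 3 with the block, 6 with DESeq2 size factors or limma voom and 7 with the DESeq2 test. In gel against uninjured, the higher count of 1 became 2 with upper quartile scaling and 0 in the 2 groups alone or with the block, where 7 were lower. Leaving out each library gave 0 to 1 higher and 0 to 2 lower, 1 to 4 higher and 2 to 12 lower, and 0 to 2 higher and 5 to 17 lower in these comparisons. The cause was not tested.

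Among named genes, direction turned only for values that were not called. Upper quartile scaling gave 0.012 for Psmf1 (gel against PBS) and 0.017 for Psmb5 (gel against uninjured), and the block gave -0.0080 for Psmd11 (gel against uninjured). With single libraries left out, values ran in PBS against uninjured from -0.093 to 0.029 for Psme4, -0.015 to 0.12 for Psmf1, -0.23 to 0.027 for Psmg1, -0.15 to 0.030 for Pomp, -0.13 to 0.019 for Adrm1 and -0.18 to 0.00047 for Psmb10. In gel against PBS they ran from -0.13 to 0.029 for Psmf1 and -0.080 to 0.31 for Psmg3. In gel against uninjured they ran from -0.14 to 0.026 for Psmb5, -0.12 to 0.23 for Psmd11, -0.066 to 0.095 for Psmf1, -0.34 to 0.053 for Psmg3 and -0.035 to 0.17 for Pomp.

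Counts over all genes moved too: in PBS against uninjured, 376 higher and 457 lower became 666 and 751 with DESeq2, 1192 and 1147 in the 2 groups alone, 1256 and 1283 with the block and 156 to 800 and 222 to 893 without single libraries. In gel against PBS 1786 lower became 1046 in the 2 groups alone and 1118 to 2791 without single libraries, and 2236 higher became 1338 to 3171. In gel against uninjured 1951 higher and 1498 lower ran to 1236 to 2841 and 1039 to 2500. A simulation of gel against PBS over 13304 genes left 13107 of them unchanged. Log2 changes of 0.5 were called in 6% of 100 genes and changes of 1 in 57.7% of 97 genes. In the data, 2236 genes were called higher and 1786 lower. The adjustment depends on how many genes change, so the simulated percentages do not give the share of such changes called in the data.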
